A study of Homo sapiens with 4 samples.

Results

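The genes described here are 7 textbook targets of the tumour suppressor p53, namely CDKN1A, MDM2, GADD45A, BBC3, BTG2, PMAIP1 and SESN2, examined for gains of accessible chromatin after anthracycline treatment of K562 cells. They were chosen by name, and each was given a fixed GRCh37 span, known to 1 kb, that was extended by 10 kb on either side. Every region that the authors listed as gained with at least 1 drug and that shared at least 1 bp with such a window counts as a member. By this rule 9 of the 100205 regions in any list belong to these genes, and they lie at 4 of the 7 genes. ATAC-seq marks open DNA through the places where a transposase can insert sequencing adapters. The groups were untreated K562 cells (the control), cells given 10 µM doxorubicin (Doxo) for 4 h, cells given 10 µM N,N-dimethyldoxorubicin (diMe-Doxo) for 4 h and cells given 20 µM aclarubicin (Acla) for 4 h, so the Acla dose differed from the others. K562 is an established human chronic myelogenous leukaemia line, and all groups were cells of this 1 line. The labels give 1 sample per group, while each list carries 2 treated and 2 control libraries, with nothing to say whether the pair came from separate cultures. Differences between libraries may therefore be technical.

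In cells with working p53, DNA damage stabilises the protein, which binds response elements near its target genes and raises their transcription. MDM2 closes a feedback loop by marking p53 for degradation, CDKN1A (p21) and GADD45A halt the cell cycle, BTG2 restrains proliferation, BBC3 (PUMA) and PMAIP1 (NOXA) promote apoptosis, and SESN2 (sestrin 2) restrains mTORC1 signalling under stress. K562 cells are known to lack functional p53. The lists hold accessible regions only, so neither the p53 state nor the transcription of any of these genes was measured, and the cell line could not be checked against markers. Doxorubicin is known to poison topoisomerase II, which breaks DNA, and also to displace histones, whereas its dimethylated form and aclarubicin are known for displacing histones without much breakage.

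The promoters of these genes were searched for a p53 response element, since no sequence of the gained regions themselves could be read. The RefSeq promoter table (GRCh38.p14), which covers the 250 bases before to 50 after each start, held 6 of the 7 genes. GADD45A has no entry. MDM2 had 4 windows and each other gene with an entry 1. Each window was searched on both strands for the p53 consensus, which is a pair of adjacent 10-base palindromic repeats without a spacer, 20 bases in all, with up to 2 mismatches. A match was found in 228 of all 35116 promoter windows, a share of 0.649%. Among the member genes, only MDM2 had one, at the start inside its first intron that is known as the p53-responsive promoter. The 250 bases before that start, on the plus strand of GRCh38.p14 at chr12:68808767-68809016, are shown with the 20 bases of the site in capitals, its 2 mismatches included. Only the closest stretch of each window was kept, so any further near match in these bases is not marked.
MDM2: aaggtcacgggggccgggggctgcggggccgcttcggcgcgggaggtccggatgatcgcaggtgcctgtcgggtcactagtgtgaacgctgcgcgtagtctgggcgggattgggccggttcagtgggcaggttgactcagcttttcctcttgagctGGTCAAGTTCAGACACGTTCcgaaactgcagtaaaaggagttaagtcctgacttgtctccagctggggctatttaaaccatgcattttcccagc

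The closest 20 bases in the other promoter windows are printed for comparison with the MDM2 site, with capitals for bases that fit the consensus and lower case for mismatches, each on the strand of its gene.
MDM2: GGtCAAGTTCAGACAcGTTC
PMAIP1: GAGCgTGTCCGGGCAgGTCg
BTG2: GGGaAAGTCCGGGCAgagCC
CDKN1A: tGGCcTGCTgGAACTcGgCC
BBC3: AGtCAAGTTTGAGaAgtCTg
SESN2: AAACcgtCTTGcAaAAGTTT
The MDM2 site has 2 mismatches, that of PMAIP1 3, that of BTG2 4 and those of CDKN1A, BBC3 and SESN2 5 each. A window with up to 3 mismatches occurred in 5.20% of all promoter windows and 1 with up to 5 in 70.5%, so the last 3 sequences are ordinary. A missing match says only that these letters are not in this window, and the well-known CDKN1A elements lie farther upstream than the table reaches.

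No gained region was listed at the start of any of the 7 genes with any drug. Of the 9 member regions, 0 came within 1 kb of the start of a gene span. Over the genome, 10.7% of windows of 5 kb, which are wider than such a stretch, held a Doxo region. The shares were 9.23% for diMe-Doxo and 10.6% for Acla. A count of 0 at 7 starts is therefore not read as a result about these genes. Doxo had gained regions at 4 genes (CDKN1A, BBC3, BTG2 and SESN2), with 9 regions in all. The diMe-Doxo and Acla lists each had 4 regions, at CDKN1A, BTG2 and SESN2. MDM2, GADD45A and PMAIP1 had a region in none of the 3 lists. The 4 regions listed for diMe-Doxo were the 4 listed for Acla, and Doxo had them too, so that each of the 9 regions was listed either for all 3 drugs or for Doxo alone. The 5 regions of Doxo alone lay at BBC3 (2), SESN2 (2) and CDKN1A (1). They were 55.6% of the member regions in the Doxo list, beside 44.3% of the whole Doxo list. The 4 regions of all 3 drugs were 44.4%, beside 43.1% of the whole Doxo list. Both patterns are thus common in that list and not particular to these genes. Sharing between the other lists is common too, as 43402 of the 52784 diMe-Doxo regions were also in the Acla list.

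**Figure D1:**
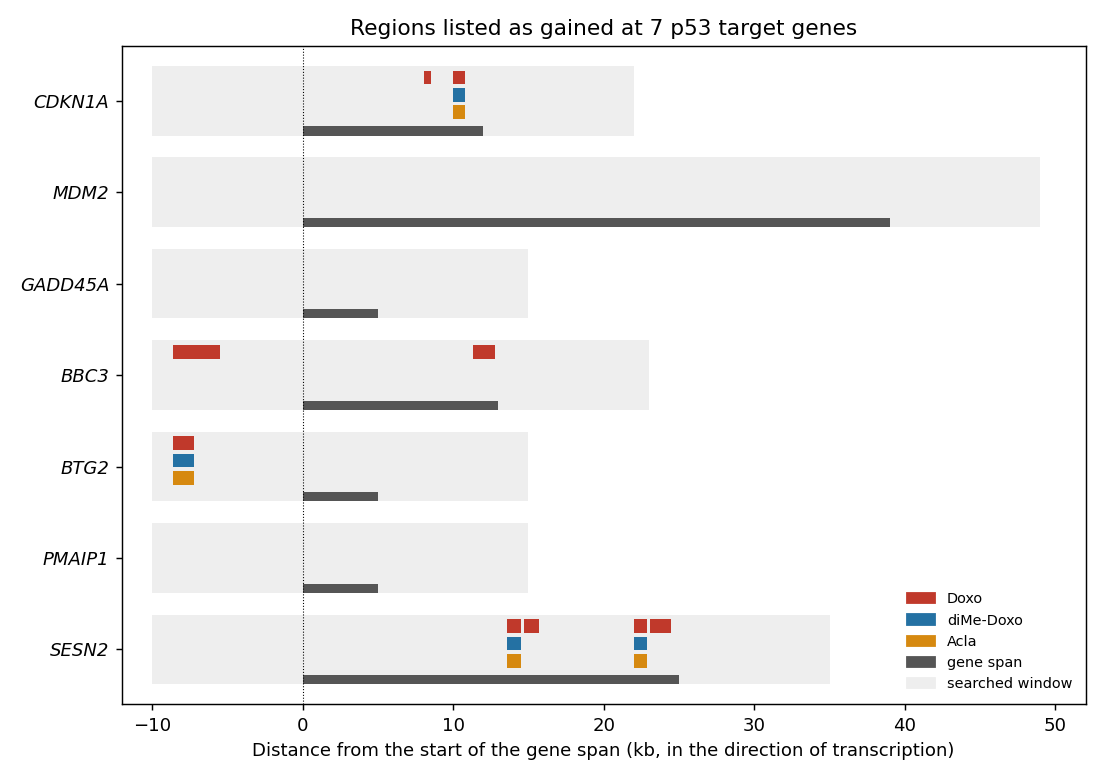
Position of listed regions at each gene, in kb from the start of the gene span in the direction of transcription (GADD45A, whose strand is not in the table used, runs by rising coordinate). Coloured blocks are regions listed for Doxo, diMe-Doxo or Acla, dark bars the gene spans and grey the searched windows. Blocks occur at 4 of 7 genes, and none lies within 1 kb of a start.

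A count of 4 or 3 genes out of 7 has to be read against the density of the lists. When chromosomes 1 to 22 and X were cut into windows of 32 kb, the median width of the member windows, 36.3% held at least 1 Doxo region, 32.9% a diMe-Doxo region and 36.4% an Acla region. With windows as wide as each gene's own locus, these shares add up to 2.62 of 7 genes in the Doxo list, 2.36 in the diMe-Doxo list and 2.60 in the Acla list, beside the 4, 3 and 3 observed. On each gene's own chromosome the sums were 2.94, 2.38 and 2.66. Inside the spans alone, without flanks, 3, 2 and 2 genes had a region, beside sums of 1.44, 1.28 and 1.44. The counts were above the sums by fewer than 2 genes, with no test, and are not read as a result about p53 targets as a group. The windows count gene-poor and unmappable stretches as well as genes, and no annotation of all genes on GRCh37 was used.

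**Figure D2:**
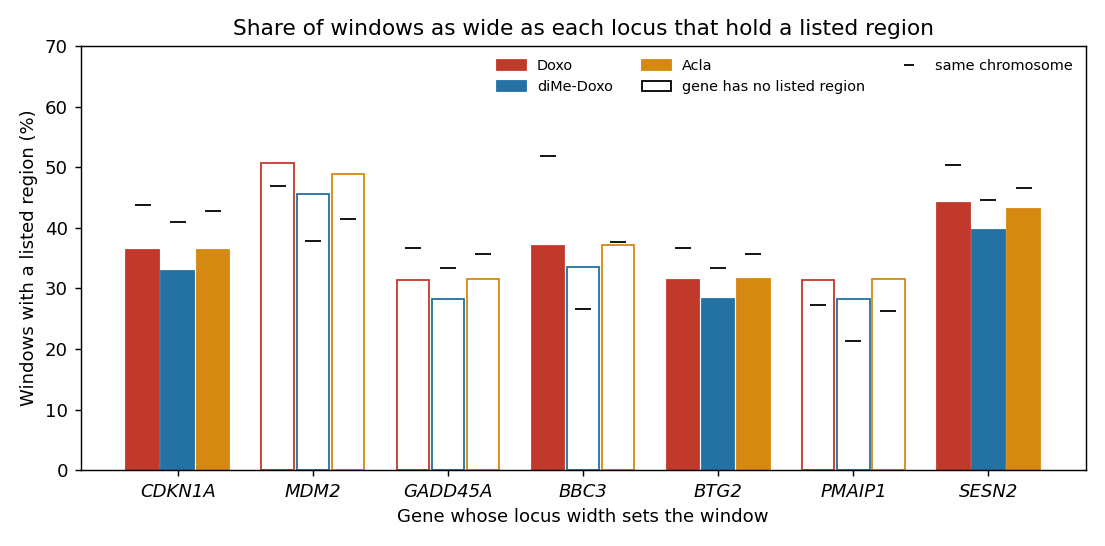
Share of windows (%) that held at least 1 listed region, for windows as wide as each gene's locus tiled along chromosomes 1 to 22 and X (bars) or along the gene's own chromosome (dashes). Filled bars mark genes with a region in that list and open bars genes without. MDM2, with the widest locus and shares of 50.7%, 45.5% and 48.8%, had none.

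SESN2, whose product is a stress-induced restraint on mTORC1, had the most Doxo regions of the 7 genes and the largest Doxo fold, although without the first control library BBC3 region 2 was higher (log2 6.46 against 5.62). Its 45 kb window held 4 Doxo regions, 2 diMe-Doxo regions and 2 Acla regions, all inside the gene span on chromosome 1 (GRCh37, span 28585000-28610000). Of windows of that width, 7.69% held 4 or more Doxo regions (10.4% on chromosome 1), 19.1% held 2 or more diMe-Doxo regions and 23.2% held 2 or more Acla regions. They formed a pair about 14 kb downstream of the start and a pair near the end of the span. In each pair the region nearer the start was listed for all 3 drugs and its neighbour for Doxo alone.

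SESN2 region 1, at 28598605-28599539 and 13.6 to 14.5 kb from the start, had the highest Doxo fold of the member regions, over 1 read in each control library. Signal is given in the authors' normalized reads, which are comparable within a list only. It was 54.0 and 82.4 in the Doxo libraries against 1.44 and 1.39 in the controls. With diMe-Doxo it was 23.6 and 23.4 against 2.41 and 2.03, and with Acla 16.8 and 23.4 against 2.85 and 2.44. Treated and control libraries did not overlap in any list, which holds for all member regions and follows from how the lists were made. A value of 1 read is the lowest in the files and the median of every control library in each list. It may be a floor and not a count, which leaves the fold over control poorly bounded. With the values taken as counts, the Doxo to control ratio of reads was 48.3 (95% exact binomial interval 13.2 to 402). If 1 is a floor, this interval does not measure counting error. In the authors' deposited table the log2 fold was 5.59 with Doxo (FDR 2.03e-06), 3.41 with diMe-Doxo (FDR 0.00208) and 2.93 with Acla (FDR 0.0126). A Doxo fold at least as high was found at 1.45% of the Doxo list, while 13% of the diMe-Doxo list and 34.5% of the Acla list reached this region's folds there. A peak had been called in 1 control library.

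SESN2 region 3, at 28607035-28607875, lay 22 to 22.9 kb from the start. Normalized reads were 39.1 and 54.2 with Doxo against 2.88 and 1.39 in the controls. They were 15.2 and 13.3 with diMe-Doxo against 4.81 and 2.03, and 19.8 and 20.4 with Acla against 5.70 and 2.44. The Doxo libraries were far above their controls, whereas diMe-Doxo and Acla stood a few-fold above theirs. The authors' deposited table gave log2 folds of 4.45 (FDR 5.74e-05), 2.06 (FDR 0.0575) and 2.30 (FDR 0.0300), so the diMe-Doxo entry rests on an unadjusted p of 0.0291.

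The remaining SESN2 regions were listed for Doxo alone. Region 2, at 28599677-28600717, gave 83.9 and 78.9 normalized reads in the Doxo libraries and 1.44 and 9.71 in the controls (log2 fold 3.87, FDR 2.88e-04, in the authors' deposited table). Region 4, at 28608077-28609508, had 34.8 and 33.8 against 1.44 and 12.5 (log2 fold 2.30, FDR 0.0386, in the authors' deposited table), with no peak called in any library. Its end is within 1 kb of the end of the span, which is as precise as the span is known. The treated pair agreed closely at both regions and the control pair did not. Without the first control library the log2 fold of region 4 was 1.46, under the 1.5 that the lists require.

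**Figure D3:**
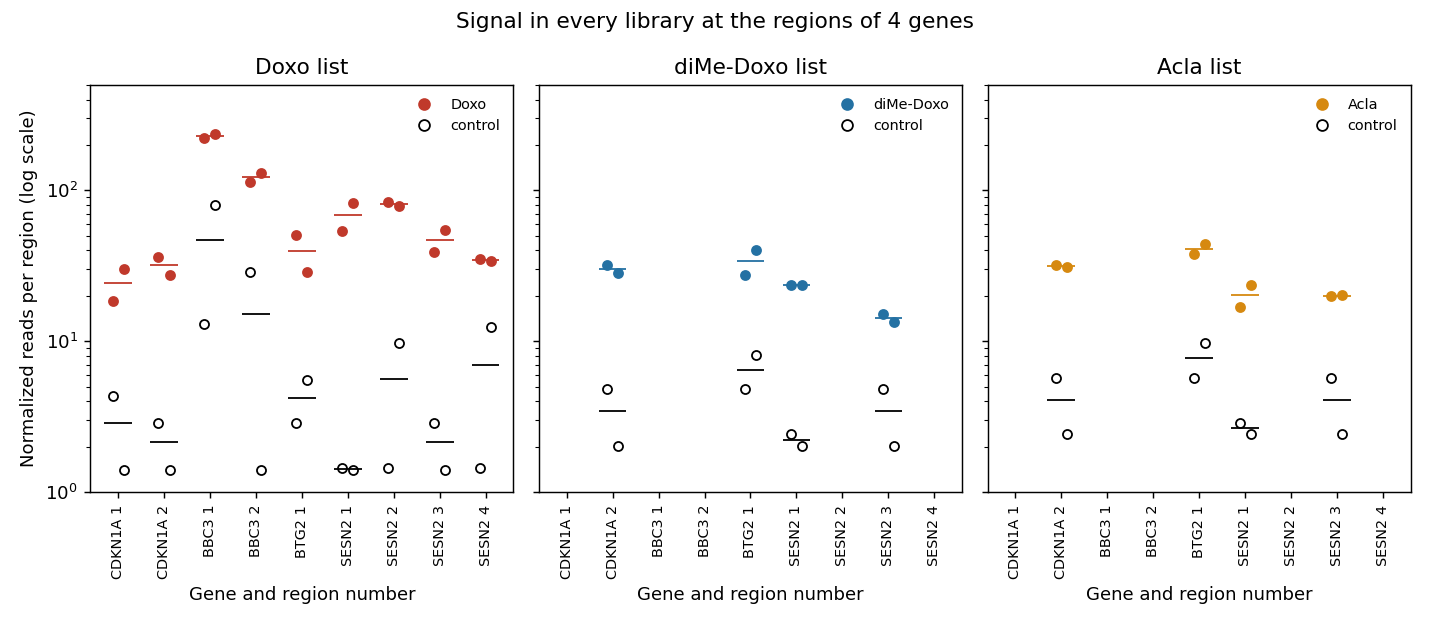
Normalized reads per region (log scale) in every library at the 9 member regions, by list. Filled points are treated libraries, open points control libraries and bars group means. At BBC3 region 2 the controls stand at 28.8 and 1.39, while at SESN2 region 1 they are nearly equal.

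Doxo and diMe-Doxo, matched in dose and time, differ in structure by methyl groups on the amino sugar, and SESN2 regions 1 and 3 allow a direct comparison. Signal at both was higher with Doxo. The lists had been normalized separately, so the treated reads were put on the scale of the control libraries that the lists share. On this scale region 1 had 38.2 and 58.3 reads in the Doxo libraries and 10.7 and 10.6 in the diMe-Doxo libraries. Before scaling these were 76, 117, 53 and 51 reads, as recovered from the deposited signal. The log2 difference was 2.17 ± 0.29 (SE, 95% interval 1.61 to 2.73, n = 2 against 2, edgeR quasi-likelihood adjusted p 2.99e-13). At region 3, with 27.7 and 38.4 against 6.9 and 6.0, it was 2.35 ± 0.34 (SE, 95% interval 1.68 to 3.02, edgeR adjusted p 5.75e-11). Each Doxo library was above both diMe-Doxo libraries at all 4 member regions in both lists, as at 44.6% of the 33140 shared regions, and below both at 14.2%. The scale matters in this comparison, since the median log2 difference over all shared regions was 0.28 on the control scale and -0.05 with TMM scaling. With TMM the log2 differences at regions 1 and 3 were 1.84 and 2.01 (edgeR adjusted p 7.53e-06 and 2.05e-05). Of all shared regions, 28.9% were called higher with Doxo and 2.72% lower at an adjusted p of at most 0.05, so a higher call is common in this comparison. With TMM the split was 23.6% higher and 10.6% lower, and with DESeq2 19.6% and 4.57%. Among the 4 member regions in both lists, 3 were called higher with Doxo and 0 lower. The SE, intervals and p-values measure spread between libraries, which may be technical, and not between cultures. Only regions already listed as gained with both drugs could be tested, and the test cannot undo that choice. Acla was given at another dose and was not tested against the others.

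BTG2, an antiproliferative gene, had 1 gained region, listed for all 3 drugs. It lay on chromosome 1 at 203265382-203266776, 7.2 to 8.6 kb upstream of the start and outside the gene. Normalized reads were 50.5 and 28.9 with Doxo against 2.88 and 5.55 in the controls, 27.7 and 40.5 with diMe-Doxo against 4.81 and 8.10, and 38.1 and 44.2 with Acla against 5.70 and 9.78. In the authors' deposited table the log2 folds were 3.23 (FDR 0.00206), 2.40 (FDR 0.0102) and 2.41 (FDR 0.00838). The diMe-Doxo and Acla folds were lower than the median of their lists (2.52 and 2.62), and the Doxo fold was above its median of 2.95. Doxo exceeded diMe-Doxo by 0.86 ± 0.31 on the log2 scale (SE, 95% interval 0.26 to 1.46, edgeR adjusted p 0.0175). This call was lost with TMM scaling (log2 0.52, edgeR adjusted p 0.225) and without Doxo replicate 1 (log2 0.41, edgeR adjusted p 0.508), and likewise with DESeq2 or without diMe-Doxo replicate 1. On the control scale the Doxo libraries had 35.7 and 20.4 reads and the diMe-Doxo libraries 12.5 and 18.3, so the second of each pair nearly met. Since BTG2 had no region inside its span, its entry depends on the 10 kb flank, and with no flank it drops from all 3 lists.

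CDKN1A, the cyclin-dependent kinase inhibitor p21 and the classical arrest target, had a region near the end of the gene whose fold was above the list median with each drug. Region 2, on chromosome 6 at 36654019-36654850, lay 10.0 to 10.8 kb from the start inside the span of 36644000-36656000. Its normalized reads were 36.2 and 27.5 in the Doxo libraries beside control values of 2.88 and 1.39, 32.1 and 28.5 with diMe-Doxo against 4.81 and 2.03, and 32.1 and 31.1 with Acla against 5.70 and 2.44. The log2 folds in the authors' deposited table were 3.90 (FDR 4.87e-04), 3.15 (FDR 0.00170) and 2.96 (FDR 0.00382). The control libraries held 2 reads and 1 read, the latter the lowest value in the files. With these taken as counts, the interval of the Doxo ratio of 15 ran from 4.98 to 74.2. The Doxo to diMe-Doxo difference of 0.71 ± 0.33 (SE, log2) did not pass the threshold (edgeR adjusted p 0.0862), and its 95% interval of 0.07 to 1.36 does not show that the drugs act alike. With TMM scaling the difference was 0.39 (edgeR adjusted p 0.315).

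CDKN1A region 1, at 36652070-36652486, was listed for Doxo alone. The Doxo libraries gave 18.5 and 30.3 normalized reads and the control libraries 4.32 and 1.39, and the authors' deposited table gave a log2 fold of 3.09 (FDR 0.00619). It was the narrowest member region, at 416 bp, and a peak had been called in only 1 of the Doxo libraries. A region absent from a list may have gained less or may have missed the p-value limit, and no signal for it with diMe-Doxo or Acla is given.

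**Figure D4:**
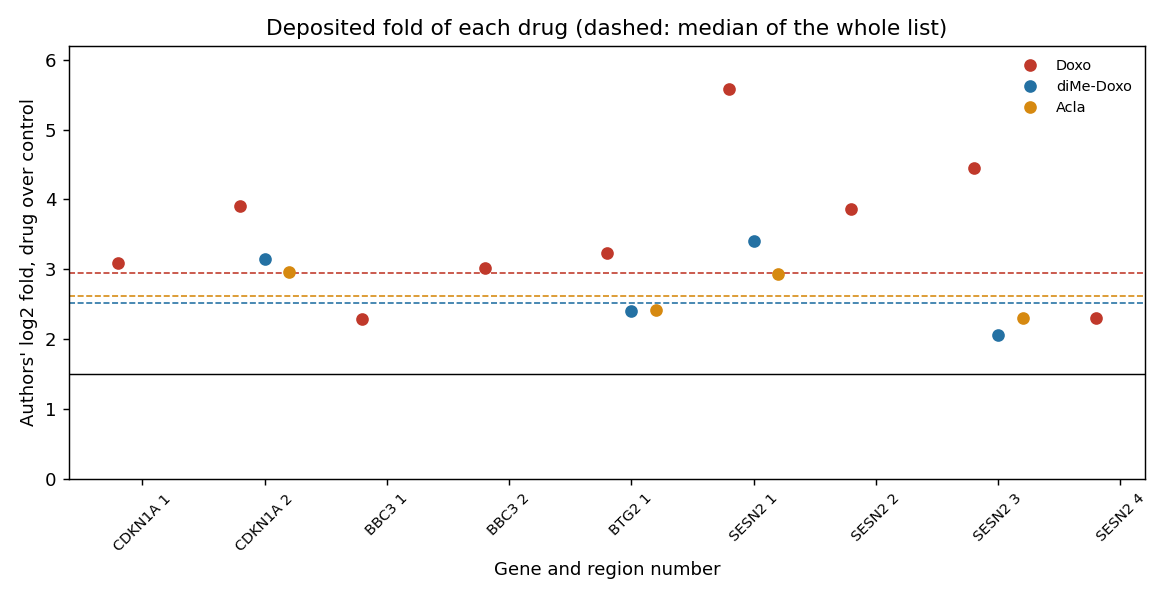
Authors' deposited log2 fold over control at the 9 member regions, with the median of each whole list (dashed) and the 1.5 limit of the lists (solid). Doxo is at 5.59 at SESN2 region 1 and 4.45 at SESN2 region 3. The 3 drugs lie between 2.96 and 3.90 at CDKN1A region 2.

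BBC3, which encodes the proapoptotic BH3-only protein PUMA, was the one gene with regions in the Doxo list alone. Region 1, on chromosome 19 at 47742549-47745578, lay 5.5 to 8.6 kb upstream of the start of this minus-strand gene, toward its RefSeq neighbour CCDC9. It was accessible before treatment, with a peak called in both control libraries and normalized reads of 221 and 236 after Doxo against 13 and 80.4 in the control pair. At 3029 bp it was among the widest 0.390% of the Doxo list. Region 2, at 47724190-47725700, lay at the far end of the gene, 11.3 to 12.8 kb from the start, with 114 and 131 against 28.8 and 1.39. The log2 folds in the authors' deposited table were 2.29 (FDR 0.0394) and 3.02 (FDR 0.0183).

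The control libraries disagreed at BBC3, so the sizes of its gains are uncertain. They held 9 and 58 reads at region 1 and 20 reads and 1 read at region 2. Only 1.54% of the Doxo list had control libraries at least as far apart as at region 2. For region 1 the share was 22.7%, so a gap of that size is common in the list. Without the first control library the log2 fold was 1.51 at region 1 and 6.46 at region 2, and without the second it was 4.14 and 2.09. Neither BBC3 region met stricter limits (FDR up to 0.01, log2 fold from 2 upward) that 48.8% of the Doxo list met. The chromosome also differs between the lists. Windows of the BBC3 width held a Doxo region in 51.9% of cases on chromosome 19 and 37.0% over the genome, while for diMe-Doxo the shares were 26.6% and 33.5% and for Acla 37.7% and 37.1%. Listing for Doxo alone at BBC3 therefore goes along with a density that is higher for Doxo across its chromosome, and their relation was not tested.

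MDM2, the ubiquitin ligase that degrades p53, had no gained region in its window of 59 kb, although 50.7% of windows of this width held a Doxo region. The nearest Doxo region, at 69188147-69188408 on chromosome 12, lay 12.6 kb upstream and was faint. It had 12.1 and 9.15 normalized reads against 2.88 and 1.39 in the controls, and the authors' deposited table gave a log2 fold of 2.31 (FDR 0.0574). Within 100 kb of the gene the Doxo list had 8 regions, while the diMe-Doxo and Acla lists had 0. Their nearest region, the same one at 69345127-69345726, lay 105.1 kb downstream.

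GADD45A, a growth arrest and DNA damage-inducible gene, and PMAIP1, the BH3-only gene NOXA, also had no region. The nearest to GADD45A with Doxo and diMe-Doxo was the same, 19 kb away on the side of GNG12 at 68173972-68174638 on chromosome 1. Its normalized reads were 27.0 and 21.1 with Doxo against 2.88 and 1.39, and 17.9 and 9.20 with diMe-Doxo against 4.81 and 2.03. The nearest Acla region was 76.4 kb away. For PMAIP1 on chromosome 18 the nearest region was 64.3 kb downstream at 57636292-57637292 in each of the 3 lists, with authors' deposited log2 folds of 2.82, 2.27 and 1.91. Along the whole of chromosome 18, 27.2%, 21.4% and 26.3% of windows of the PMAIP1 width held a Doxo, diMe-Doxo or Acla region. Over the genome the shares were 31.4%, 28.3% and 31.6%. Because the lists hold gains that passed a p-value of 0.05 and a log2 fold of 1.5, these genes may have gained less, not changed or lost signal.

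Farther from the genes, the Doxo list was the fullest around CDKN1A, MDM2, BBC3 and SESN2 but not around the other three. Within 100 kb there were 12 Doxo, 7 diMe-Doxo and 5 Acla regions at CDKN1A, 9, 2 and 3 at BBC3, and 11, 2 and 4 at SESN2. At BTG2 there were 3, 3 and 5, at GADD45A 4, 5 and 1, and at PMAIP1 1, 1 and 2. The 7 genes together had 48 Doxo, 20 diMe-Doxo and 20 Acla regions. Windows of the same widths held on average 33.2, 26.3 and 30.5 over the genome and 39.8, 27.7 and 32.8 on the genes' own chromosomes. The Doxo count was above these averages and the other counts were below them, with no test of the difference. This distance was chosen after seeing the data.

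**Figure D5:**
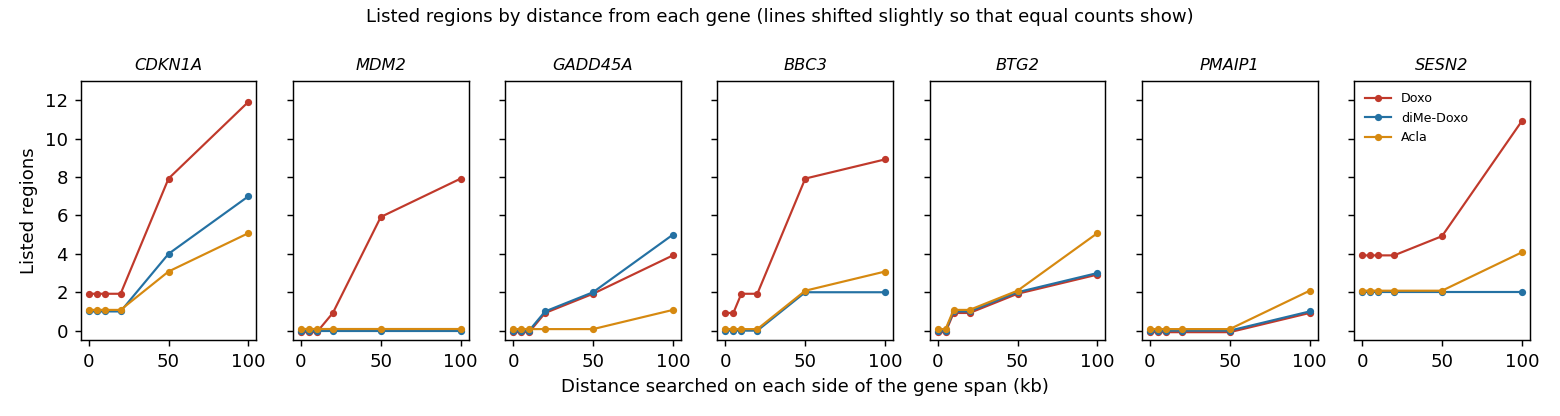
Number of listed regions (vertical axis) by the distance searched on each side of a gene span, in kb (horizontal axis), for the 7 genes and 3 lists. At 100 kb MDM2 has 8 Doxo regions and 0 for diMe-Doxo and Acla, while BTG2 has 3, 3 and 5.

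As a group the member regions had folds near those of their lists. In the authors' deposited table the 9 Doxo members had a median log2 fold of 3.23 beside 2.95 in their whole list, the 4 diMe-Doxo members 2.78 beside 2.52, and the 4 Acla members 2.67 beside 2.62. Of the 9 member regions 6 lacked a control peak, a smaller share than the 82.6% of the whole Doxo list. Treated libraries held 3534855 to 7266289 reads within their lists and control libraries 120492 to 253175, and the full depth is unknown. At the member regions other than those of BBC3 the controls held 1 to 9 reads per library, which limits how well any fold over control is known.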

How the data were processed

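ATAC-seq of K562 cells was analysed from 3 deposited lists, 1 per drug, each with 2 treated and 2 control libraries. Per the submitters' processing notes, DiffBind and the GRCh37 build were used. Which aligner, peak caller, normalization and test were applied is not given in the sources used here. Lists have no header, and columns were identified from the values. The authors' deposited table gives log2 mean signal and log2 fold, p-values with FDR, a count of libraries with a peak, and a signal that is reads times 1 factor per library. All listed p-values were at most 0.05 and all log2 folds at least 1.5. Positions are printed as deposited, and whether starts count from 0 or 1 is unknown.

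Reads were recovered by dividing each signal by its step (100% of values whole within 0.1 reads). The lists share their control libraries, with identical control reads at all 33140 regions common to Doxo and diMe-Doxo. Those regions were tested across all of them with edgeR's quasi-likelihood test and Benjamini-Hochberg adjustment, without controls, on factors scaled to the controls. The design fixed edgeR on these reads. The script was tested on simulated data. Alternatives were TMM, DESeq2, limma, a filter at 20 reads, leaving out libraries, other flanks, stricter limits and a pseudocount of 5. Ratio intervals are exact binomial (95%) and cover counting error only. They take values of 1 read as counts, although 1 may be a floor. Other p53 target genes were not analysed here, because the gene table used is on another build. Genes, regions and lists were chosen with earlier results of these data known, and all member regions are named. Software was edgeR 4.0.16, limma 3.58.1 and DESeq2 1.42.0 under R 4.3.3, with scipy 1.17.1, pandas 2.3.3 and matplotlib 3.10.9 under Python 3.11.15.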

Additional observations from a re-analysis of the deposited data

How the results depend on the processing

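SESN2 regions 1 and 3 kept a higher Doxo than diMe-Doxo call under all 8 alternatives each, CDKN1A region 2 stayed short of the threshold under all 8, and BTG2 lost its call under 4 of 8. Of all shared regions, 900 were lower with Doxo in the main test, 3508 with TMM, 1514 with DESeq2, and 159 to 815 with a library left out. The higher calls ranged from 7532 to 9125 with a library left out. Under the stricter limits on FDR and fold, the member regions fell from 9 to 6 with Doxo, and from 4 to 2 with diMe-Doxo and with Acla. The same limits were met by 48.8% of the whole Doxo list, 38.1% of the diMe-Doxo list and 42.8% of the Acla list. Flanks of 50 and 100 kb, chosen after seeing the data, gave 31 and 48 Doxo regions, 12 and 20 diMe-Doxo regions and 9 and 20 Acla regions. Genes with a region then rose to 7 for Doxo at 100 kb, to 5 and 6 for diMe-Doxo and to 6 for Acla at 100 kb. Without flanks the window shares summed to 1.44, 1.28 and 1.44 genes for the drugs in the same order, beside 3, 2 and 2 genes observed. A pseudocount of 5 lowered the median member log2 fold in every list. The Doxo median fell from 3.23 to 2.37, the diMe-Doxo median to 1.88 and the Acla median to 1.79. At SESN2 region 1 the Doxo fold fell from 5.59 to 3.51. SESN2 region 3 fell under the 1.5 limit of the lists with diMe-Doxo (1.19) and Acla (1.47), while all 9 Doxo members stayed at or above it. With a library left out the medians ran from 3.41 to 4.13 with Doxo, 2.69 to 3.17 with diMe-Doxo and 2.48 to 3.04 with Acla. Single region folds moved by more than the spread between libraries in 11 of 85 settings. Their direction could not change under these settings, because treated and control libraries did not overlap at any member region. No paired analysis was possible because the libraries carry no shared replicate numbers in the labels.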
